A study of Bos taurus with 12 samples.

Results

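Transferrin and its partners in iron and zinc handling were followed in the fat of cattle through 8 genes, TF, TFRC, SLC39A14, SLC40A1, FTH1, FTL, HMOX1 and CP. Their members on the array were all probe sets annotated with exactly 1 gene symbol that is among these names. This gave 9 probe sets of 7 genes, out of 24128 probe sets in all and 9155 genes named by a single symbol. CP had 3 probe sets, the other 6 genes had 1 each, and SLC40A1 was not analysed here. Of the 9 probe sets, 8 were bright enough to be tested, among 16811 tested in all.

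The samples were fat from within the muscle (intramuscular, IMF) or from beneath the skin (subcutaneous, SCF) of steers. The breeds were Japanese Black (JB), known for marbled beef, and Holstein (HS), a dairy breed. All steers had been on an energy-rich feeding regimen, so the arrays hold no animals on another diet. The 4 groups, JB IMF, HS IMF, JB SCF and HS SCF, had 3 samples each, 12 in all. The labels number the samples of each breed, with 1 to 3 for IMF and 4 to 6 for SCF. They do not tie samples to animals, within a group or across the depots. The p-values therefore rest on the spread between samples, and that spread may be technical.

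Iron travels in plasma bound to transferrin, the product of TF, and enters cells when the loaded protein binds the transferrin receptor, encoded by TFRC. Inside the cell it is stored in a ferritin shell built of heavy (FTH1) and light (FTL) chains, and iron locked in haem is freed by haem oxygenase, encoded by HMOX1. SLC40A1 encodes ferroportin, the iron exporter, and CP encodes ceruloplasmin, a copper-carrying ferroxidase that prepares exported iron for loading onto transferrin. SLC39A14 encodes ZIP14, an importer of zinc that also takes up iron not bound to transferrin. The liver is the main source of plasma transferrin and ceruloplasmin, while macrophages are known for recycling iron.

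TF was taken up because its difference between the depots had been seen in these data before, and the values that led to the other names are not recorded. The differences between IMF and SCF are therefore given for these genes as a description with their standard errors (SE), with no p-value. The differences between the breeds, and the test of whether the breed difference changed with depot, are given with p-values from limma, adjusted by Benjamini-Hochberg over all 16811 probe sets, with a threshold of 0.05.

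Some arrays stood apart. HS IMF 3 had a median signal of 58.8, below the 77.6 to 88.3 of the remaining arrays. Every JB sample correlated more closely with the rest of its group, at 0.944 to 0.962, than did every HS sample, at 0.805 to 0.915, and the lowest in each depot were HS IMF 3 (0.805) and HS SCF 4 (0.875). The GAPDH control's ratio of 3' to 5' signal, a sign of degraded RNA when high, reached 4.06 in HS SCF 5, with 1.19 to 2.40 elsewhere. By the cyclophilin control the highest ratio was that of HS IMF 1, at 3.35, with HS SCF 5 at 2.85. The arrays were therefore put on a common distribution by quantile normalization. Values by sample are given as deposited signals. All differences are of log2(signal + 16), a scale on which dim genes change by less than their signals do. With quantile normalization the median of all tested probe sets for JB minus HS in IMF was 0.096, against 0.37 as deposited.

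TF had much less signal in IMF than in SCF, in both breeds. It stood at 58.5, 523 and 127 in JB IMF and at 143, 268 and 64.3 in HS IMF, against 986, 8474 and 4508 in JB SCF and 1921, 6765 and 9054.5 in HS SCF. The highest IMF sample, JB IMF 2 at 523, lay below the lowest SCF sample, JB SCF 4 at 986, so the depots did not overlap. The difference, IMF minus SCF, was −4.47 ± 0.61 (SE, n = 6 samples a depot) on the log2 scale, which is 22.2-fold. It was −4.14 ± 0.87 in JB and −4.80 ± 0.87 in HS (SE, n = 3 samples a group).

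TF also varied widely among samples of one group. The highest JB IMF sample had 8.94 times the signal of the lowest, and in the other groups this ratio was 4.17 in HS IMF, 8.60 in JB SCF and 4.71 in HS SCF. The mean log2 levels were 7.43 ± 1.45 in JB IMF, 7.44 ± 0.78 in HS IMF, 11.58 ± 1.59 in JB SCF and 12.25 ± 1.13 in HS SCF (SD, n = 3 each). Neighbours in this order within a depot lay closer together than the spread within their groups, and the step between HS IMF and JB SCF was wider than it.

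**Figure D1:**
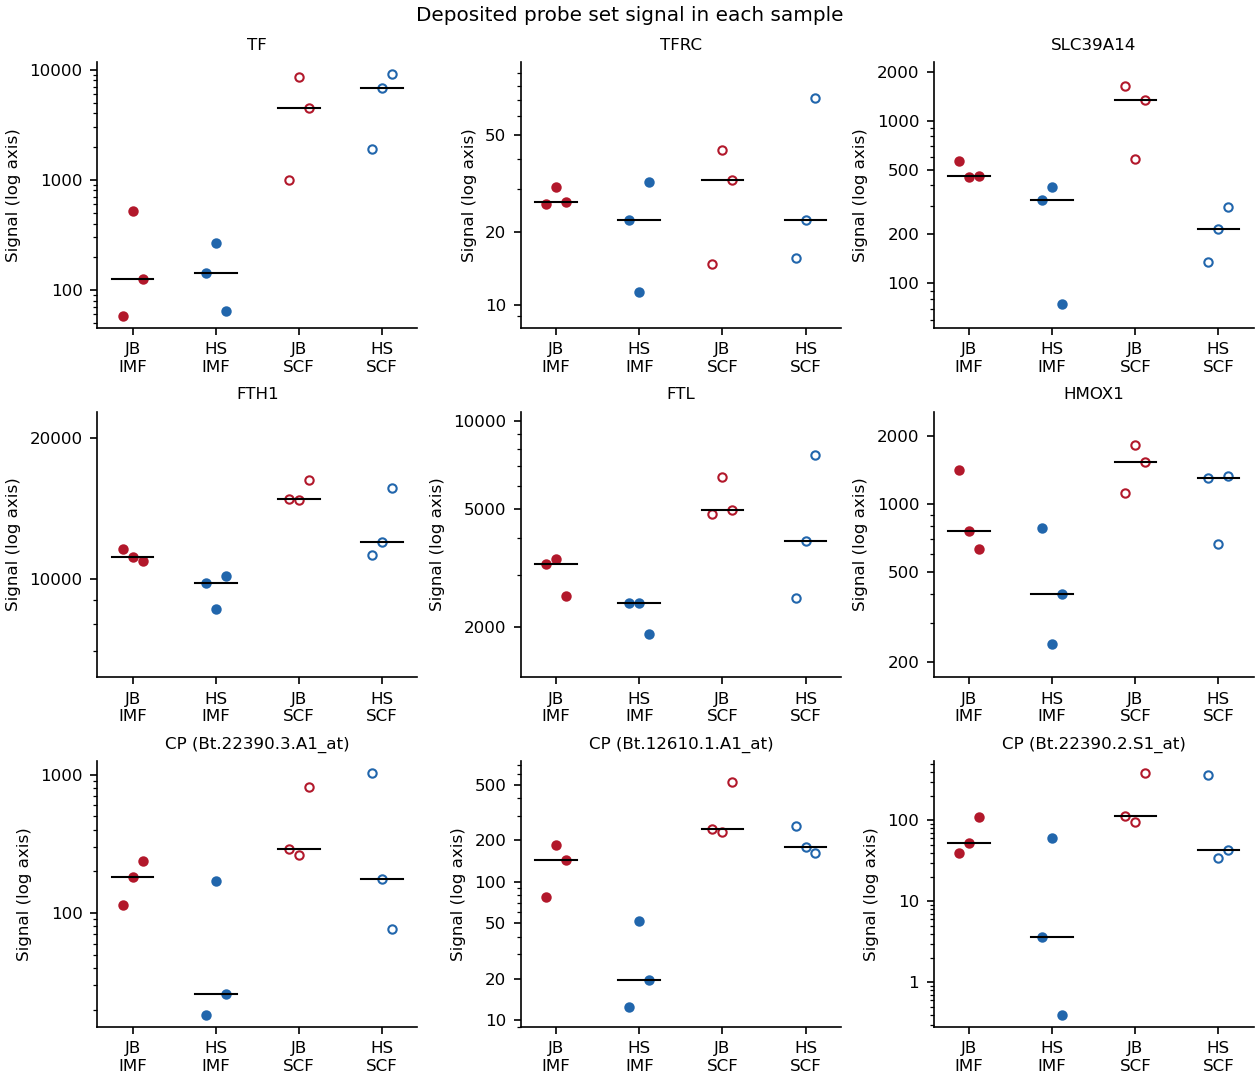
Deposited signal of the 9 probe sets in each of the 12 samples, on log axes. Points are samples (JB red, HS blue, IMF filled, SCF open) and lines are group medians. The 6 IMF samples of TF lie between 58.5 and 523 and the 6 SCF samples between 986 and 9054.5, while every JB SCF sample of SLC39A14 (577 to 1629.9) lies above every HS SCF sample (135 to 294).

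The receptor for transferrin gave little signal. TFRC had 26.1, 30.4 and 26.4 in JB IMF and 22.35, 11.2 and 32.1 in HS IMF, against 14.7, 43.6 and 32.6 in JB SCF and 15.5, 22.4 and 71.3 in HS SCF. Its mean log2 value, 5.43, was under the limit of 5.63 below which probe sets were left out as dim, a limit that corresponds to a signal of 33.4, so it was not tested. The groups overlapped throughout, and the largest TFRC signal, 71.3 in HS SCF 6, was the only one above 43.6. Levels of different probe sets cannot be set against each other on this array, so no ratio of TF to TFRC is given.

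Both ferritin chains were bright, and lower in IMF than in SCF by less than TF. FTH1 stood at 11586, 11128 and 10945 in JB IMF and at 9785, 8624 and 10131 in HS IMF, against 14862, 14795 and 16297 in JB SCF and 11245, 11999 and 15688 in HS SCF. The depots overlapped in these signals, where JB IMF 1 (11586) exceeded HS SCF 4 (11245), and did not overlap after normalization. The FTH1 difference, IMF minus SCF, was −0.41 ± 0.14 (SE). FTH1 was among the brightest probe sets, ranking between 6 and 79 of 24016 by signal on each array. A probe set this bright may no longer follow the amount of RNA, and that was not tested. The largest signal on an array was 152036 in HS IMF 3 and 222742 in HS SCF 6, against 17138 to 21870 on the others.

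FTL had 3266, 3387 and 2543 in JB IMF and 2411, 2399.9 and 1887 in HS IMF, against 4840.2, 6457 and 4965 in JB SCF and 2502, 3906 and 7655 in HS SCF. In JB every IMF sample lay below every SCF sample, and so did those of HS in the deposited signals, though not after normalization. The FTL difference between depots was −0.71 ± 0.22 (SE), with −0.74 ± 0.30 in JB and −0.69 ± 0.30 in HS. FTL and FTH1 moved together over the samples, with a Pearson r of 0.91 over 12 samples and of 0.78 for the deviations from the group means. That r is a description over arrays that share their normalization.

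HMOX1, the enzyme that frees iron from haem, showed a like difference with more overlap. It had 1421, 764 and 632 in JB IMF and 783, 241 and 401 in HS IMF, against 1126, 1832 and 1535.5 in JB SCF and 1311, 669.8 and 1335 in HS SCF. JB IMF 1 was above JB SCF 4, and HS IMF 1 was above HS SCF 5, so the depots overlapped in each breed. The HMOX1 difference, IMF minus SCF, was −0.80 ± 0.32 (SE), and its r with TF for the deviations from the group means was −0.25.

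CP was measured by 3 probe sets, all lower in IMF than in SCF on average. The brightest, Bt.22390.3.A1_at, had 113, 182 and 236 in JB IMF and 18.4, 169.6 and 25.9 in HS IMF, against 288, 264 and 818 in JB SCF and 1021, 176 and 76.25 in HS SCF. Its difference between depots was −1.48 ± 0.60 (SE), and HS SCF 4 at 1021 was its highest sample, although that array correlated least with its group in SCF. The difference was −0.97 without HS SCF 4 and −0.83 without both HS IMF 3 and HS SCF 4. HS IMF 2 stood out from the other HS IMF samples on all 3 CP probe sets.

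The CP probe set of middle brightness, Bt.12610.1.A1_at, had 77.6, 183 and 142 in JB IMF and 12.6, 52.4 and 19.6 in HS IMF, against 241, 227 and 528 in JB SCF and 252, 177 and 162 in HS SCF. Within each breed every IMF sample was below every SCF sample, and the depots overlapped over both breeds only because JB IMF 2 (183) exceeded HS SCF 5 and 6. Its difference was −1.67 ± 0.30 (SE), with −1.09 ± 0.43 in JB and −2.26 ± 0.43 in HS. The dimmest, Bt.22390.2.S1_at, ran from 0.4 to 109 in IMF with a median of 46.6 and from 34.2 to 380.3 in SCF with a median of 104.7, and differed by −1.45 ± 0.57 (SE). The difference of this dim probe set moved with the pseudocount, to −2.23 with 1 and −0.90 with 64, and it was −0.97 without HS SCF 4 and −0.78 without both that sample and HS IMF 3.

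The 3 CP probe sets followed one another with r between 0.86 and 0.97 over the 12 samples. Both whose names carry cluster number 22390 share it with a probe set of HPS3, a gene that overlaps CP on assembly ARS-UCD2.0 (RefSeq), so signal of the overlapping gene cannot be told apart by name. That HPS3 probe set differed between the depots by −0.43 ± 0.21 (SE, limma, adjusted p = 0.210), and its signal ranged over 18.9 to 75.7 in IMF against 64.5 to 98.8 in SCF. Bt.12610.1.A1_at carries another cluster number.

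SLC39A14, the zinc and iron importer, did not have the same order of depots in both breeds. It had 563, 452.5 and 457 in JB IMF and 327, 393 and 74.8 in HS IMF, against 1629.9, 577 and 1333 in JB SCF and 135, 215 and 294 in HS SCF. In JB every IMF sample was below every SCF sample, with a difference of −1.10 ± 0.48 (SE), and in HS the depots overlapped, with 0.31 ± 0.48 (SE). Over both breeds it was −0.39 ± 0.34 (SE), and −0.13 without HS IMF 3.

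All 8 tested member probe sets were lower in IMF on average, with a median difference of −1.12, while the median over all 16811 probe sets was −0.060. The 2 that lay past the adjusted threshold between the depots were TF and the CP probe set Bt.12610.1.A1_at, where 11% of all probe sets did, and since TF had been chosen on this contrast nothing is read from that count. Depots did not overlap, with IMF the lower, for 2 of 8, TF and FTH1, where 3.13% of all probe sets did so, and in the deposited signals for TF alone, where 3.77% did. Within JB this held for 6 of 8, with 16.2% of all probe sets, and within HS for 3 of 8, with 12.7%. Nothing is read from the median or from these counts either. TF was chosen on this contrast, and what led to the other members is not recorded. CP alone gives 3 of the 8 probe sets, so they are not 8 separate genes.

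**Figure D2:**
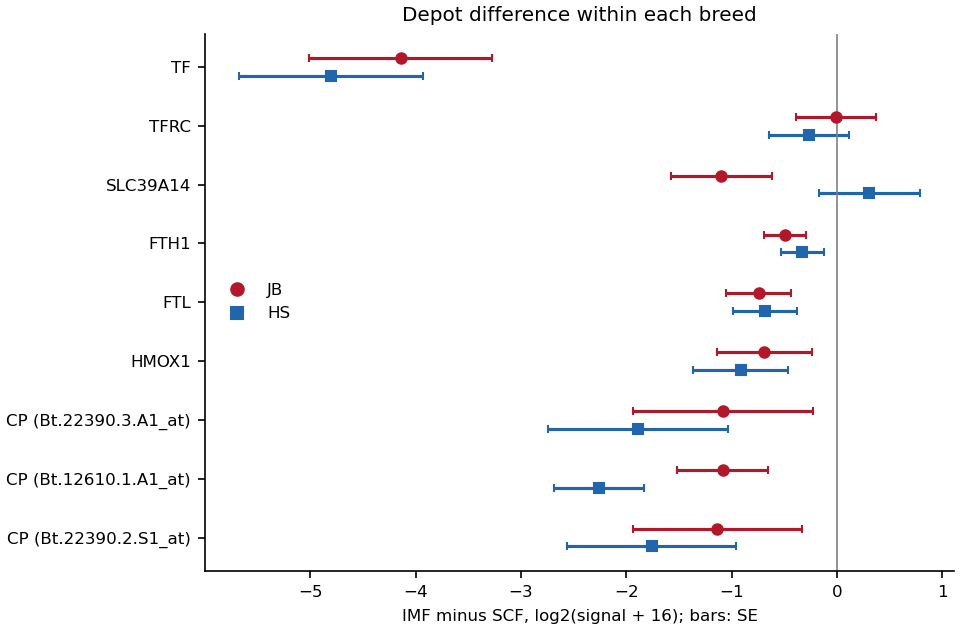
Difference between IMF and SCF within JB (red circles) and within HS (blue squares) for each probe set, on the log2(signal + 16) scale, with bars for the SE. TF lies at −4.14 and −4.80, the ferritin chains between −0.33 and −0.74, and SLC39A14 at −1.10 in JB and 0.31 in HS.

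The depots also differed in the markers of other cells. Of 9 macrophage genes with a probe set, 8 fell in IMF past the threshold (limma, adjusted p below 0.05), where 11% of all probe sets passed in either direction. The median difference of the 9 was −2.16, and LYVE1 (−0.86, adjusted p = 0.338) did not pass. Their summed signal was 2089 to 6920 in IMF and 13195 to 34136 in SCF, without overlap. CD68, a lysosomal protein of macrophages, fell by 2.16 on the log2 scale (adjusted p = 0.0130), and CSF1R, the receptor for their growth factor, fell by 1.62 (adjusted p = 0.00482). In bulk tissue, fewer cells of a type and less RNA per cell cannot be told apart.

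Of 10 skeletal muscle fibre genes, 8 rose in IMF (limma, adjusted p below 0.05), with summed signals of 48403 to 105195 in IMF against 4343 to 17622 in SCF. The share over all probe sets, 11% in either direction, stands beside this count and those of the lists below. The marker genes also entered through their brightest probe set each, so that share covers dimmer probe sets than the lists do. Adipocyte genes were at 28712 to 62452 in IMF and 55485 to 86674 in SCF, with a median difference of −0.68. Among them 1 of 10, the glycerol channel gene AQP7, fell (limma, adjusted p = 0.0416), no more than the share over all probe sets. Of 7 stromal progenitor genes 2 fell, PDGFRA, a growth factor receptor (−0.73, adjusted p = 0.0455), and DPP4, a surface peptidase (−0.94, limma, adjusted p = 0.0457). The list's median difference was −0.64, and PI16 went the other way (0.23). Its summed deposited signal was 14917 to 26967 in IMF, against 27052 to 44616 in SCF, just without overlap. After normalization the list's mean log2 values overlapped, at 9.89 to 10.60 in IMF against 10.46 to 11.34 in SCF. Of 6 tested endothelial genes 0 passed by limma, with 1 at an unadjusted p below 0.05, and of 5 tested erythroid genes 0 passed, with 0 at that level. Summed over every list gene with a probe set (7 endothelial, 6 erythroid), the signals overlapped between depots. For the endothelial genes they were 4469 to 10786 in IMF against 6690.1 to 12529 in SCF. For the erythroid ones they were 347 to 824 in IMF against 458 to 964 in SCF. The TF difference of −4.47 was larger in size than the median difference of the macrophage, adipocyte or stromal progenitor genes. It was smaller in size than the median difference of the skeletal muscle fibre genes, which rose in IMF. TF is a single gene chosen on this contrast, so nothing is read from its size beside these medians. The part of these markers in the differences of the iron genes was not tested.

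For the liver-made proteins TF and CP, hepatocyte genes were read as well. Of 4 tested, 0 passed the threshold between depots by limma and 1 had an unadjusted p below 0.05, APOA1 (−1.11, adjusted p = 0.117). The summed signal of all 5 list genes with a probe set was 877 to 3662 in IMF and 1680 to 2842 in SCF. The probe sets of the list differed in signal, which does not rank the amounts of their RNA, as levels of different probe sets cannot be compared here. ALB, the albumin gene, had group means of 1613 to 2406, and APOA1 had 182 to 778. SERPINA1 and TTR were dimmer, and fibrinogen FGB, too dim to be tested, had group means of 3.19 to 6.07. Adipocyte genes were bright in every group, as the labelled tissue has it, and FABP4, the fatty acid carrier of adipocytes, had group means of 13973 in JB IMF, 14236 in HS IMF, 16094 in JB SCF and 16479 in HS SCF.

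**Figure D3:**
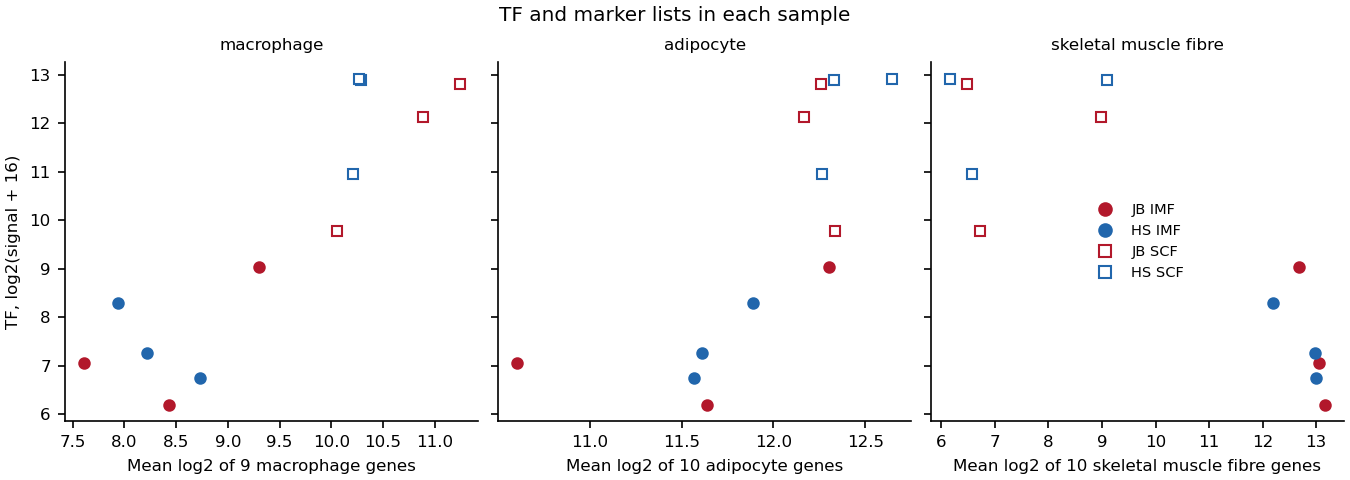
TF (log2, vertical axis) against the mean log2 value of 9 macrophage, 10 adipocyte and 10 skeletal muscle fibre genes in the 12 samples (JB red, HS blue, IMF filled circles, SCF open squares). The depots form separate clusters in TF and in the macrophage and muscle genes, and JB IMF 2, the IMF sample with most TF, has the highest macrophage and adipocyte means of its depot.

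Because the depots form separate clusters, the relation of TF to the markers was described within depots only. With the macrophage mean TF had an r of 0.35 over the 6 IMF samples and of 0.52 over the 6 SCF samples. With the adipocyte mean the values were 0.59 in IMF and 0.25 in SCF, and with the skeletal muscle fibre mean they were −0.77 in IMF and 0.25 in SCF. These are few points that share their normalization.

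The breeds were compared within each depot, as the study's design states. In IMF, JB minus HS, 0 of the 8 tested probe sets passed the threshold by limma, where 0.0238% of all probe sets did, and 1 had an unadjusted p below 0.05, where 10.2% did. TF averaged 7.43 in JB IMF and 7.44 in HS IMF on the log2 scale, a difference of −0.01 ± 0.87 (SE, adjusted p = 0.996). Its 95% interval, −1.90 to 1.88, leaves room for several-fold differences either way.

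The CP probe set Bt.12610.1.A1_at had the smallest p of the members in IMF. It differed by 1.70 ± 0.43 (SE), which is 3.24-fold, with an unadjusted p of 0.00194 and an adjusted p of 0.485 in limma, and every JB IMF sample (77.6 to 183) lay above every HS IMF sample (12.6 to 52.4). The other CP probe sets differed by 1.35 ± 0.85 (adjusted p = 0.559) and 1.33 ± 0.80 (SE, adjusted p = 0.547), and both overlapped through HS IMF 2. After normalization 1 of 8 members had JB above HS without overlap, where 7.31% of all probe sets did. In the deposited signals it was 4 of 8, with SLC39A14, FTH1 and FTL besides this CP probe set, where 13% of all probe sets did.

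SLC39A14 averaged 8.87 in JB IMF and 8.06 in HS IMF, a difference of 0.82 ± 0.48 (SE, adjusted p = 0.538), and the lowest value was that of HS IMF 3. HMOX1 differed by 0.61 ± 0.45 (adjusted p = 0.616), FTL by 0.18 ± 0.30 (adjusted p = 0.828) and FTH1 by 0.01 ± 0.20 (SE, adjusted p = 0.982). The FTH1 interval, −0.43 to 0.45, was the narrowest of the tested members.

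In SCF the SLC39A14 values of the breeds were apart. JB SCF averaged 9.97 and HS SCF 7.75 on the log2 scale, and the difference, JB minus HS, was 2.22 ± 0.48 (SE, 95% interval 1.18 to 3.26), which is 4.66-fold. The unadjusted p was 0.000562 and the adjusted p 0.618 (limma), so it did not pass the threshold over all probe sets. The lowest JB SCF sample was at 577 and the highest HS SCF sample at 294. Groups without overlap, JB higher, were 1 of 8 members and 5.81% of all probe sets.

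Of the 8 members, 0 passed the threshold in SCF, where 0.00595% of all probe sets did, and 1, SLC39A14, had an unadjusted p below 0.05, where 3.56% did. TF differed by −0.67 ± 0.87 (SE, adjusted p = 0.9997), with a 95% interval of −2.57 to 1.22. The remaining members differed by 0.18 (FTH1) to 0.71 (Bt.22390.2.S1_at), each overlapping between the breeds.

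**Figure D4:**
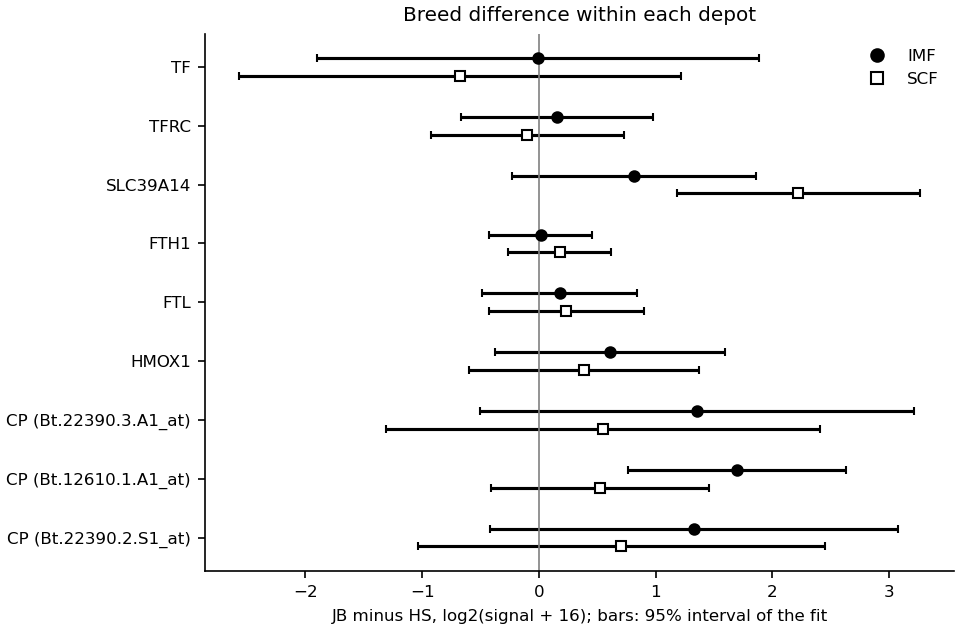
Difference between JB and HS within IMF (filled circles) and within SCF (open squares) for each probe set, on the log2(signal + 16) scale, with bars for the 95% interval of the fit. The intervals of SLC39A14 in SCF (1.18 to 3.26) and of the CP probe set Bt.12610.1.A1_at in IMF (0.76 to 2.64) leave out 0 before adjustment, and those of TF span it widely in both depots.

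Whether the breed difference changed with depot was tested by the interaction term (JB minus HS in IMF, less JB minus HS in SCF). It was −1.41 ± 0.68 for SLC39A14 (SE, unadjusted p = 0.0598, adjusted p = 0.990, limma) and 1.17 ± 0.61 for Bt.12610.1.A1_at (SE, unadjusted p = 0.0778, adjusted p = 0.990). Of the 8 members 0 passed the threshold, as did 0% of all probe sets, and 0 had an unadjusted p below 0.05, where 2.14% did. The larger SLC39A14 difference in SCF was thus not shown to differ from that in IMF.

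Genes whose pattern over the 12 samples was most like that of TF were found by Pearson r. They were ANGPTL2 (0.97), STXBP2 (0.96), TDH (0.96), TADA3 (0.95), SKA1 (0.95) and DOK2 (0.95). All 6 were lower in IMF on average, as TF was, so these r values include the depot difference. For the deviations from the group means, their r was 0.75 (SKA1) to 0.92 (ANGPTL2). The signal of ANGPTL2 was 142 to 431 in IMF, against 544 to 1697 in SCF. TDH had the widest depot difference of the 6 (−3.71), with 5.21 to 56.8 in IMF against 124 to 1277 in SCF.

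For SLC39A14 the likest genes were DR1 (0.91), MAN1A1 (0.90), ARF1 (0.89), CHSY1 (0.89), DCAF12 (0.88) and MFAP3 (0.88). Their r for deviations from the group means was 0.71 to 0.83. MAN1A1 had 49.6 to 134 in JB samples against 15.6 to 61.6 in HS samples. These r values describe 12 arrays that share their normalization, and the genes were picked for them.

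Other genes of iron, copper and zinc handling were read from 8 lists of 75 genes, each through its brightest probe set. Of the 75, 46 had a probe set with 1 symbol and 42 were tested. Between the depots 8 fell and 1 rose in IMF (limma, adjusted p below 0.05), 21.4% of the 42, where 11% of all probe sets passed. The median difference over the 42 was −0.28, against −0.060 over all probe sets. The lists were chosen with earlier results of these data known. They hold 1 brightest probe set a gene, while the shares over all probe sets include dimmer and unnamed ones. Nothing is therefore read from the higher share or the lower median.

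In the transferrin cycle and iron uptake list 1 of 6 tested genes changed. SLC11A1, a metal pump of the phagosome known from macrophages, had 155, 72.4 and 1.82 in JB IMF and 0.57, 40.3 and 1.32 in HS IMF, against 507, 334 and 299 in JB SCF and 54.9, 278 and 287 in HS SCF. The depots overlapped through HS SCF 4, which was lower than both JB IMF 1 and JB IMF 2. SLC11A1 fell by 2.61 ± 0.54 on the log2 scale (SE, adjusted p = 0.00984), beside the fall of the macrophage markers given above. Several of its values were near 0, and the difference was −3.99 with a pseudocount of 1 and −1.65 with one of 64.

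Of 4 copper genes tested, 2 fell in IMF and 0 rose. SLC31A1, the copper importer, had 468, 508 and 384 in JB IMF and 396, 366 and 141 in HS IMF, against 1225, 1138 and 872 in JB SCF and 514, 949.5 and 1459 in HS SCF. No IMF sample reached the lowest SCF sample, and SLC31A1 fell by 1.26 ± 0.24 (SE, adjusted p = 0.00597). ATOX1, the chaperone that passes copper to the secretory pathway where ceruloplasmin is loaded, fell by 0.77 ± 0.20 (SE, adjusted p = 0.0268), over 786 to 2505 in IMF and 2316 to 3169 in SCF. SLC31A2 (−0.28) and the copper chaperone CCS (−0.29) did not pass.

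Of 10 tested zinc importers of the family of SLC39A14, 3 fell and 0 rose. SLC39A9 fell by 0.91 ± 0.20 (SE, adjusted p = 0.0136), with 704, 855 and 612 in JB IMF and 425, 651 and 206 in HS IMF, against 1391, 1153 and 1103 in JB SCF and 862, 1027 and 1395 in HS SCF. Its depots did not overlap. SLC39A1 fell by 0.69 ± 0.16 (adjusted p = 0.0168) and SLC39A11 by 0.72 ± 0.21 (SE, adjusted p = 0.0444). Of 4 zinc exporters 0 passed by limma, with 0 at an unadjusted p below 0.05, and those with the smallest p were SLC30A6 (−0.37, adjusted p = 0.259) and SLC30A2 (0.50, adjusted p = 0.313).

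MT3, a metallothionein that binds zinc and copper and is best known from the brain, was the 1 gene that rose in IMF, of 4 tested in its list. It had 78.2, 77.2 and 68.6 in JB IMF and 124, 77.5 and 114 in HS IMF, against 61.8, 36.2 and 32.0 in JB SCF and 72.4, 60.6 and 44.2 in HS SCF, a difference of 0.80 ± 0.21 (SE, adjusted p = 0.0343), and of 0.52 with a pseudocount of 64. Only HS SCF 4, at 72.4, was above an IMF sample. The more widely expressed metallothioneins gave −0.56 (MT1A, adjusted p = 0.548) and −0.36 (MT2A, adjusted p = 0.680).

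Of the 5 mitochondrial iron genes tested, 1 fell. It was ISCU, the scaffold on which iron-sulphur clusters are built, which fell by 0.66 ± 0.17 (SE, adjusted p = 0.0264). Of the 5 haem and haemoglobin genes, 1 fell, BLVRA, which turns the biliverdin made by haem oxygenase into bilirubin, by 0.85 ± 0.22 (SE, adjusted p = 0.0302). Of 4 genes of iron sensing and hormonal control 0 passed and 0 had an unadjusted p below 0.05, with ACO1, the iron-sensing RNA-binding protein, at −0.53 (adjusted p = 0.202) and PCBP1, an iron chaperone, at 0.37 (adjusted p = 0.255).

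Between the breeds 0 of the 42 passed by limma in IMF and 0 in SCF, where 0.0238% and 0.00595% of all probe sets did. An unadjusted limma p below 0.05 was found for 6 in IMF and 3 in SCF, where 10.2% and 3.56% of all probe sets had one. Leaving out single samples changed the count of 9 between depots to as few as 3, which happened without JB IMF 1, without JB IMF 3 and without JB SCF 5, and to 4 without JB SCF 6 and without HS SCF 6. SLC11A1, SLC31A1 and SLC39A9 passed in every one of the 22 other settings tried.

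**Figure D5:**
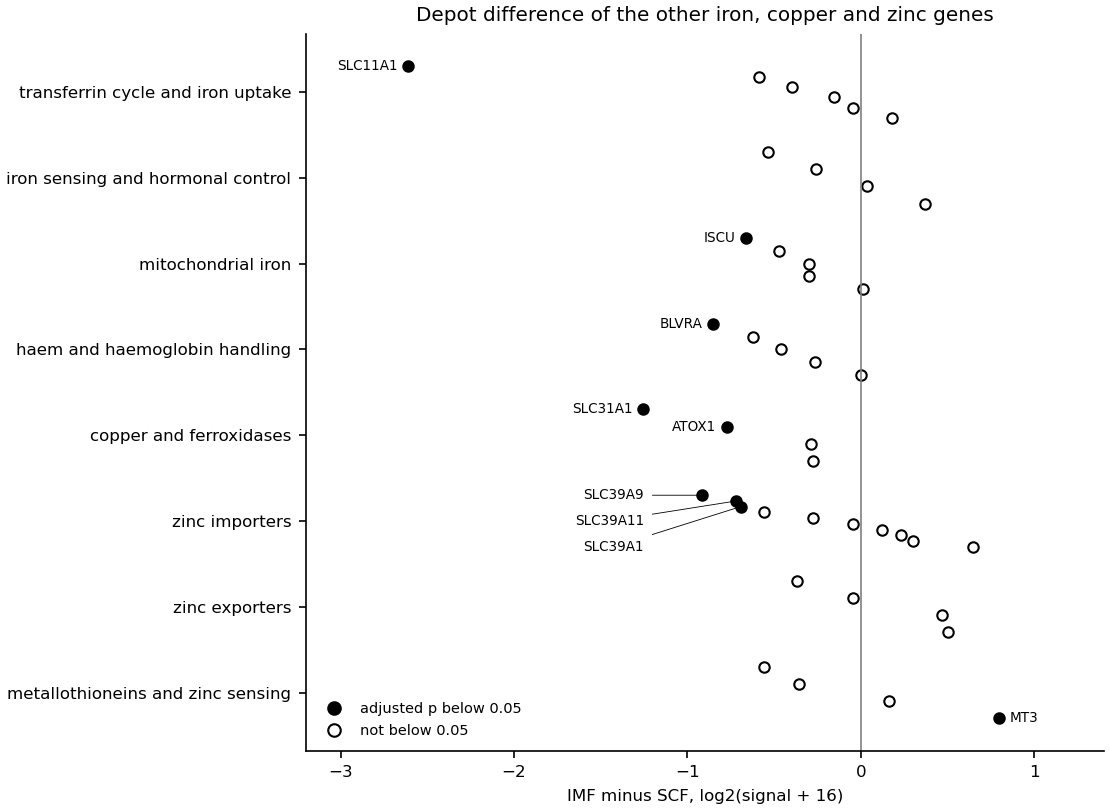
Difference between IMF and SCF over both breeds of the 42 tested genes of 8 iron, copper and zinc lists, on the log2(signal + 16) scale. Filled points passed the adjusted threshold of 0.05 and are named, 8 of them below 0 and MT3 above it.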

How the data were processed

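Per the labels' protocols, total RNA was extracted from each sample, labelled with biotin and hybridized to the Affymetrix bovine array. Per the submitters' processing notes, GCOS 1.1.1 and Affymetrix Expression Console 1.1 were used. The deposited values are linear intensity values, 1 per probe set and sample. How the authors summarized and scaled them is not given in the sources used here, and no genome build is named, so no coordinates are given. Gene symbols came from the platform annotation, which can be old.

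Signals were turned into log2(signal + 16) and quantile normalized. The 112 control probe sets were then left out, and so were the 30% of the other 24016 with the lowest mean. Linear models with 4 group means were fitted to the remaining 16811 with limma 3.58.1 (lmFit, eBayes; 8 residual degrees of freedom) in R 4.3.3 and adjusted by Benjamini-Hochberg. The depot difference averaged both breeds. With 3 arrays a group, the number of arrays limits the precision. The procedure was tested on simulated data with normal noise. For the breed difference in either depot it recovered 10.4% of 2-fold and 88.1% of 4-fold changes. For the interaction it recovered 1.49% of 2-fold and 31.3% of 4-fold changes. A breed or interaction difference that did not pass is therefore not shown to be absent. Figures were drawn with Python 3.11.15 and matplotlib 3.10.9.

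The members, the lists and the tests were chosen with earlier results of these data known. The text names every member, each list gene past the threshold between depots (or the 2 of a list with the smallest p), and the 6 genes most correlated with TF and with SLC39A14. Deviations of same-numbered samples of both breeds correlated between −0.28 and 0.12, so the numbers were not taken as pairs. Other settings were median centring, the values as deposited, pseudocounts of 1 and 64, no filter and 50% left out as dim, a trended and robust variance, array weights, only the compared groups, a replicate block and each sample left out. Removal of both HS IMF 3 and HS SCF 4, and overlap in deposited signals, were chosen after seeing the data.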

Additional observations from a re-analysis of the deposited data

Results flagged for a closer look

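Among groups of 6 samples of 1 depot, 7 of 54 tested had an end sample whose gap to its neighbour was too large a share of the whole range by Dixon's test, where chance flags about 5%. In IMF, SLC39A14 was low in HS IMF 3, at 7.01 on the log2 scale with the others between 8.37 and 9.05 (gap share 0.665). Without that sample, the breed difference in IMF was smaller, at 0.29.

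HS IMF 3 was also high for PCBP1, at 13.15 with the others between 12.06 and 12.41 (gap share 0.675), and for SLC30A2, at 8.09 with the others between 6.04 and 6.42 (gap share 0.818). Its median signal, 58.8, was itself apart from the others of IMF at 77.6 to 87.7 (gap share 0.650). ATOX1 was high in JB IMF 2, at 11.27 with the others between 10.30 and 10.60 (gap share 0.693).

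In SCF, SLC11A1 was low in HS SCF 4, at 6.15 with the others between 8.08 and 8.85 (gap share 0.714). The GAPDH 3'/5' ratio was high in HS SCF 5, at 4.06 with the others between 1.87 and 2.34 (gap share 0.786).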

How the results depend on the processing

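Under 23 other settings, 0 member probe sets passed between the breeds or for the interaction, and the depot difference of the 8 tested probe sets kept its sign in the 22 of them that give one (21 for the dimmest CP probe set). TFRC, too dim to be tested, is not among these. TF ranged from −5.16 to −4.09 between depots. The number of members past the threshold between depots was 4 with a pseudocount of 64 and 4 with a trended and robust variance, against 2, and 2 to 3 with single samples left out, and nothing is read from it, as TF was chosen on this contrast. The count of other iron, copper and zinc genes, 9, ranged from 3 to 12 with single samples left out, where fewer samples were fitted. The share of all probe sets that passed was counted in the main setting only, so the counts under other settings have no share beside them. Small breed differences changed sign. In IMF, TF (−0.01) was 0.020 with median centring, 0.22 as deposited, 0.045 with a pseudocount of 64 and −1.09 with array weights, and −0.81 to 0.60 with single samples left out. FTH1 in IMF was −0.020 to 0.068 with single samples left out, TF in SCF −1.32 to 0.23, FTL in SCF −0.098 to 0.57 and the brightest CP probe set in SCF −0.21 to 1.57. Without both HS IMF 3 and HS SCF 4, FTH1 in IMF was −0.0047 and FTL in SCF −0.098. The causes were not tested. SLC39A14 in SCF kept its sign in all 23, at 1.86 to 2.68 (adjusted p between 0.172 and 1.000). With the replicate number as a block, 3 members and 9 other genes passed between depots, where the block was fitted as random (correlation −0.046), and 0 between the breeds, with SLC39A14 in SCF at 2.22 (adjusted p = 0.888). Fitting only the compared groups gave no depot or interaction value. The number of arrays and the lack of detection calls limit what the dim probe sets, TFRC among them, can show.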

Other observations

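Haptoglobin, the product of HP, which binds free haemoglobin and is known as an acute-phase protein, was in the list of haem and haemoglobin handling but outside the rule for naming genes, and was chosen after its values were seen. HP had 1058, 1341 and 1251 in JB IMF, against 213, 895 and 346 in HS IMF. In SCF it had 2530.1, 2179 and 12877 in JB, against 12.9, 554 and 703 in HS. Every JB sample lay above every HS sample of its depot, as in 0.97% of all probe sets after normalization. The HP difference, JB minus HS, was 1.15 ± 1.05 in IMF (SE, limma, adjusted p = 0.682) and 4.11 ± 1.05 in SCF (unadjusted p = 0.00207, adjusted p = 0.883), and its interaction was −2.96 ± 1.49 (SE, adjusted p = 0.990). The difference in SCF was 2.66 to 4.94 under the other settings, and its sign was the same in all 23. Between the depots, IMF minus SCF, HP differed by −1.74 ± 1.05 in JB (SE, limma, adjusted p = 0.546). In HS it differed the other way, by 1.22 ± 1.05 (SE, limma, adjusted p = 0.511). The average over both breeds, −0.26 ± 0.74 (SE, limma, adjusted p = 0.852), joins these opposite differences.

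Ferritin light chain and the CP probe sets differed in how they varied within groups, which was picked out after the values were seen. For deviations from the group means, the r of FTL was −0.68 with the brightest CP probe set, −0.24 with the middle one and −0.61 with the dimmest, while that of FTL with FTH1 was 0.78, over 12 samples that share their normalization. HS SCF 6 was the highest of its group for FTL (7655) and the lowest for the brightest CP probe set (76.25), and HS SCF 4 was the lowest for FTL (2502) and the highest for CP (1021). HS SCF 4 was also the array that correlated least with its group in SCF. How far these r values rest on these HS SCF samples was not tested.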
